A study of Bos taurus with 20 samples.

Results

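Among the genes of differentiating bovine satellite cells, 129 had a passing high after the change to low serum. Their level at 24 h was at least 2 times that at 0 h and at least 2 times that at 96 h. Satellite cells are the resident stem cells of skeletal muscle. As background, withdrawal of serum makes cultured myoblasts leave the cell cycle, commit to the muscle programme and fuse into multinucleated myotubes. Genes that are raised for a short time in such a culture can belong to the transition itself, in contrast to contractile genes, which rise and stay. This is general knowledge of myogenesis and not a result of these data.

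The libraries came from cells labelled as satellite cells of the Belgian Blue breed, grown on collagen-coated flasks with 20% serum (0 h) and then held in medium with 2% serum for 24, 48, 72 or 96 h. Replicates A to D were harvested at every one of the 5 times. Replicates A and B were labelled batch 1 and replicates C and D batch 2. No cells kept in 20% serum beyond 0 h were analysed here, so time in culture and time in low serum cannot be told apart. PolyA RNA was sequenced, and the values are read counts per gene, with totals of 21100797 to 41998509 per library. The labels call the replicates biological but do not say whether they came from different animals, so p-values measure the spread between these cultures.

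The genes were chosen from the measured levels themselves. Of 27607 genes in the table, 14636 passed a filter on low counts and all members come from these. Levels are CPM, read counts relative to the TMM-scaled size of the library, and 0.1 was added to each mean of 4 libraries before ratios were formed. At least 1 count at 0 h was required, which 14581 genes had. Of these, 1669 were at least 2 times higher at 24 h than at 0 h and 919 of them reached 5 at 24 h. The last requirement, a level at 24 h at least 2 times that at 96 h, left the 129 members, or 0.881% of the genes tested. The other 790 genes of the same first-day rise did not meet it. Thus 0 h, 24 h and 96 h chose the members, and their values at these times are a description with no test. The libraries of 48 h and 72 h entered the filter and the scaling but none of the limits on ratio or level.

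The deposited table gives Ensembl cattle identifiers without gene names, and 0 of 27607 could be paired with a symbol from the reference table at hand. The members are therefore described by their levels, and no function, position or sequence is given for any of them. The cell type label was not checked against marker genes for the same reason. Only 4 members are named by identifier, and the others are described by their place in the set.

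The median member went up and came most of the way back. Over the 129 members the median level was 4.88 to 6.16 CPM in the 4 libraries of 0 h, 18.3 to 20.9 CPM at 24 h, 13.2 to 15.8 CPM at 48 h, 6.90 to 9.52 CPM at 72 h and 5.55 to 6.70 CPM at 96 h. The libraries of 24, 48, 72 and 96 h thus stood in 4 separate steps downward, and those of 96 h overlapped those of 0 h. On the log2 scale the median ratio to 0 h was 1.87 after the first day, 1.22 after 48 h, 0.53 after 72 h and finally 0.17. Over all genes tested the same medians lay between -0.02 and 0.00. The other 790 first-day risers had medians of 1.75, 2.58, 2.52 and 2.57.

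**Figure D1:**
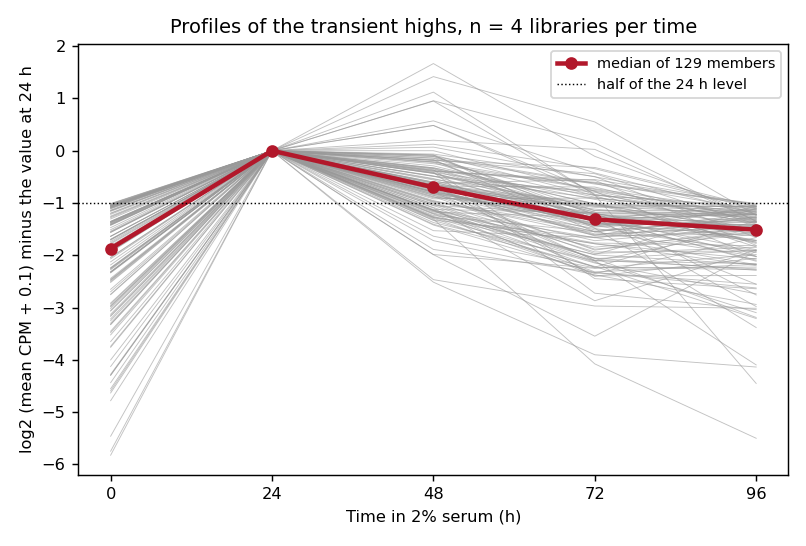
Each grey line is 1 of the 129 members, drawn as log2 of its mean level (n = 4 libraries, 0.1 added) minus the value at 24 h, against hours in 2% serum, with the median in red and the dotted line at 50% of the 24 h level. By the rule every line lies below the dotted line at 0 h and 96 h, while at 48 h and 72 h, which the rule left free, the lines spread from far below it to above the 24 h level.

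Most members were expressed at modest levels. At 24 h 32 members lay under 10 CPM, 81 between 10 and 100 CPM and 16 at 100 CPM or more, with a median of 20.7 CPM. Their summed share of the TMM-scaled library was 0.334 ± 0.0141% before the change of medium and 0.977 ± 0.0439% after 24 h (SD, n = 4 each). It was 0.615 ± 0.0417% on the next day, 0.472 ± 0.0404% after 72 h and finally 0.341 ± 0.0267% (SD, n = 4 each). The libraries of 96 h, at 0.319% to 0.378%, overlapped those of 0 h, at 0.319% to 0.350%. As a share of unscaled totals the end lay below the start, with 0.291 ± 0.0248% against 0.377 ± 0.0179% (SD, n = 4 each). A single gene made up 36.1% of the members' counts at 24 h. Without it the shares of unscaled totals were 0.209 ± 0.0205%, 0.740 ± 0.0306%, 0.381 ± 0.0345%, 0.229 ± 0.0224% and 0.178 ± 0.0103% in the same order (SD, n = 4 each). In bulk RNA a higher level in each cell and a larger share of cells with the transcript cannot be told apart.

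The size of the excursion differed widely between members. The ratio of 24 h to 0 h ranged from 2.02 to 56.7 with a median of 3.66, and that of 24 h to 96 h from 2.01 to 45.3 with a median of 2.85. In 60 members the first ratio was at least 4 and in 13 at least 16. In 35 the second was at least 4 and in 4 at least 16. Both were at least 4 in 23 members and at least 8 in 5. Many members lay near the limits of the rule, and 35 had a smaller ratio under 2.2. The members just inside had ratios of 2.02 and 2.03 to 0 h and of 2.01 and 2.03 to 96 h. The genes just outside had 1.96 and 1.96 to 0 h and 1.995 and 1.96 to 96 h. For the level at 24 h plus 0.1 these values were 5.12 and 5.26 inside and 4.99 and 4.47 outside.

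The steepest member by the smaller of its ratios was ENSBTAG00000002940, which was almost silent before and after. Its rank rests on 5 counts at 0 h and 8 at 96 h and on the 0.1 added: with 1 added its smaller ratio was 7.92, after 8.32 for a member with 886 counts at 0 h. Its levels at 0 h were 0.0564, 0.0428, 0.0335 and 0 CPM in replicates A to D. At 24 h they were 8.99, 5.84, 8.56 and 6.40 CPM. At 48 h it still had 3.28, 2.84, 2.97 and 2.72 CPM, but at 72 h only 0.148, 0.542, 0.239 and 0.460 CPM. At 96 h replicates B and C had 0 counts, and A and D had 0.165 and 0.101 CPM. The libraries of 24 h lay above all others, and those of 48 h lay above all those of 0, 72 and 96 h. The fall from 48 h to 72 h, which the rule did not use, was -3.10 on the log2 scale (standard error 0.30, edgeR quasi-likelihood test, adjusted p = 2.35e-08).

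The next steepest, ENSBTAG00000043953, was also close to silent at both ends but peaked a day later. It had 0, 0.0855, 0 and 0.220 CPM in replicates A to D at 0 h and 9.68, 7.26, 14.1 and 6.49 CPM at 24 h. At 48 h its levels of 24.1, 20.98, 19.4 and 17.5 CPM were above every library of 24 h. They were 5.63, 5.69, 4.486 and 4.88 CPM at 72 h and 0.628, 0.140, 0.0567 and 0.507 CPM at 96 h. The libraries of 48 h and 72 h did not overlap, with a log2 change of -1.98 (standard error 0.25, edgeR adjusted p = 7.09e-06).

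The most abundant member, ENSBTAG00000002006, was chosen for description after its values were seen. It was well expressed throughout, with 1528, 1670, 1316 and 1425 CPM in replicates A to D at 0 h. At 24 h it had 3756, 3549, 3884 and 2943 CPM, all above every library of the other time points. It then held a plateau, with 2369, 2318, 2018 and 2138 CPM at 48 h and 2115, 2472, 2096 and 2048 CPM at 72 h, and ended at 1232, 1168, 1237 and 1638 CPM at 96 h. The libraries of 48 h and 72 h overlapped, and the change between them was -0.02 on the log2 scale (edgeR, adjusted p = 0.909).

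**Figure D2:**
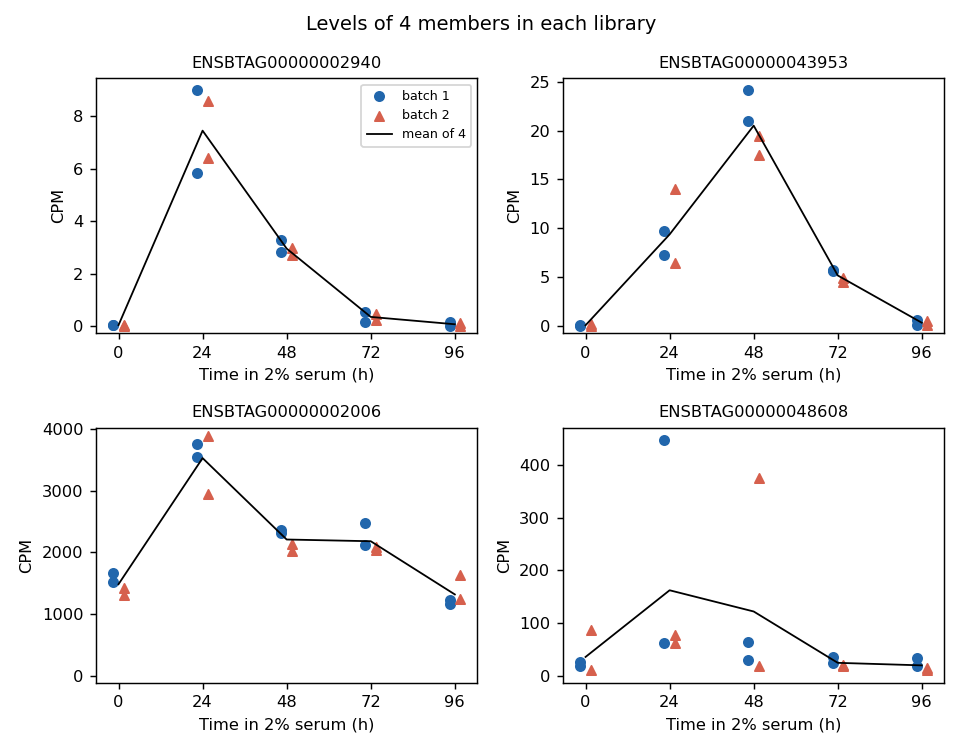
CPM of 4 members in each of the 20 libraries against hours in 2% serum. Blue circles are batch 1, red triangles are batch 2, and the black line runs through the means of 4. Each y axis starts just under 0, and the points of the batches are set slightly apart along the x axis. ENSBTAG00000002940 peaks at 24 h and ENSBTAG00000043953 at 48 h, ENSBTAG00000002006 has a plateau from 48 h to 72 h, and the mean of ENSBTAG00000048608 is carried by 1 library at 24 h and 1 at 48 h.

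With libraries left out 1 at a time, the membership of ENSBTAG00000048608 depended on replicate A at 24 h. This gene too was singled out after its values were seen. At 24 h it had 448.5 CPM in replicate A against 61.2, 77.0 and 62.7 CPM in B, C and D. At 48 h replicate D had 375 CPM and A, B and C had 30.8, 63.7 and 18.5 CPM. At 0 h replicate C had 86.7 CPM and A, B and D had 18.1, 26.6 and 11.2 CPM. The levels at 72 h, 18.3 to 35.7 CPM, and at 96 h, 10.03 to 33.7 CPM, were more even. Without replicate A the mean at 24 h was 67.0 ± 8.75 CPM (SD, n = 3), 1.88 times that at 0 h, and the gene no longer met the rule. That mean at 0 h still held the high replicate C. Replicates B, C and D at 24 h lay above A, B and D at 0 h, and the rule was not applied without both high libraries. Its change from 48 h to 72 h did not pass the test (log2 change -2.33, standard error 1.04, edgeR adjusted p = 0.0873).

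A second member followed the same libraries, and without replicate A at 24 h it too no longer met the rule. It had 15.01 CPM in replicate A at 24 h against 1.52 to 2.65 CPM in the others, 12.7 CPM in replicate D at 48 h against 0.544 to 2.11 CPM, and 3.55 CPM in replicate C at 0 h against 0.769 to 1.21 CPM. Of all 14636 genes, these 2 were the only genes of at least 5 CPM in replicate A at 24 h with at least 3 times the level of every other library of that time (0.1 added), and the only such genes in replicate D at 48 h. The other libraries had 0 such genes, except replicate C at 0 h, where ENSBTAG00000048608 was the only such gene. The limits of 5 CPM and 3 times were chosen after these values were seen. They were also the only 2 members whose libraries of 24 h and 0 h overlapped. In the other 127 all 4 libraries of 24 h lay above all 4 of 0 h, and in all 129 they lay above all 4 of 96 h. The same held for 27.3% and 32.5% of all genes tested, and nothing is read from this since the rule chose these differences.

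The level at 48 h divided the members. It was 61.3% of the 24 h level in the median member, with a range from 17.1% to 320%. In 38 members it had dropped under 50% by 48 h, in 59 this was first so at 72 h, and in 32 only at 96 h. The mean fell at every step after 24 h in 76 members. In 12 members the highest mean lay at 48 h and not at 24 h, so a strict high at 24 h was found in 117. At 72 h the median member kept 39.5% of its 24 h level.

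**Figure D3:**
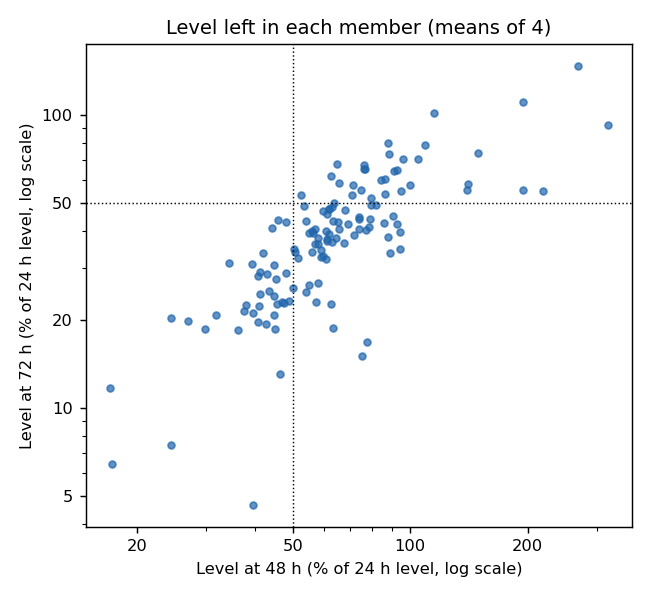
Each point is 1 of the 129 members, with its mean level at 48 h on the x axis and at 72 h on the y axis, both as a percentage of its mean at 24 h on log scales, and dotted lines at 50%. The 38 points left of the vertical line had dropped under 50% by 48 h, and the points to the right of 100% had a higher mean at 48 h than at 24 h.

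Members at both ends of this range show the difference. The smallest shares of the 24 h level left at 48 h were 17.1% and 17.3%, on means without the 0.1. The member at 17.1% had 8.39, 9.07, 5.78 and 8.41 CPM in replicates A to D at 24 h and 1.55, 1.04, 1.63 and 1.18 CPM at 48 h. Its libraries at 48 h overlapped those at 0 h, which had 1.17 to 1.78 CPM. In the 12 members highest at 48 h the median level went from 0.893 CPM at 0 h to 9.56 CPM at 24 h, 19.3 CPM at 48 h, 8.22 CPM at 72 h and 3.59 CPM at 96 h. Relative to 24 h, the highest level at 48 h was in a member with 8.31 ± 1.92 CPM at 24 h and 26.6 ± 7.80 CPM at 48 h. By 72 h this member was back at 7.70 ± 1.82 CPM (all SD, n = 4).

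The members also differed in where they ended. At 96 h 89 members were within 2-fold of their level at 0 h, 34 were at least 2 times above it and 6 were at or under 0.5 times it. The lowest level of the 5 time points lay at 0 h in 74 members, at 96 h in 33 and at 72 h in 22. The 34 members that stayed above their start had begun low, with a median of 1.28 CPM at 0 h against 6.96 CPM for the 89, and had a median ratio of 24 h to 0 h of 11.1 against 2.93. The sort into these groups uses the same levels, so these medians are not independent of it.

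The member with the highest ratio of 96 h to 0 h, 18.7, had 0.101 to 0.220 CPM at 0 h and 7.63 to 13.1 CPM at 24 h. It went on to 20.7 to 33.8 CPM at 48 h, stood at 10.1 to 20.2 CPM at 72 h and still had 3.74 to 5.04 CPM at 96 h, above every library of 0 h. At the other end, a member with 7.87 to 9.70 CPM at 0 h and 32.4 to 36.8 CPM at 24 h dropped to 5.16 to 6.82 CPM at 48 h and to 1.81 to 2.00 CPM at 96 h, under every library of 0 h. The mean was higher at 96 h than at 72 h in 39 members, by a median ratio of 1.19 without the 0.1. It was at least 1.5 times higher in 6 members and at least 2 times in 2. In the first of these 2 the level came down from 8.54 ± 3.79 CPM at 24 h to 0.639 ± 0.245 CPM at 72 h, and then stood at 2.18 ± 0.802 CPM (all SD, n = 4). The second went from 1.72 ± 0.436 to 3.45 ± 0.472 CPM between these times (both SD, n = 4).

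The comparison of 72 h with 48 h is the only one between time points that shares no library with the ratio and level limits of the rule. Between these days 106 of the 129 members (82.2%) fell and 0 rose (edgeR quasi-likelihood test, adjusted p under 0.05). Of all 14636 genes tested, 20.8% were called lower and 20.7% higher. Also at an unadjusted p under 0.05 the number of members higher at 72 h was 0, where the share of all genes is at least that 20.7%. With DESeq2 0 members were called higher and 108 lower. Of all 14636 genes it called 3178 higher, and 19.8% lower. The 4 libraries of 48 h lay above all 4 of 72 h in 94 members (72.9%), against 15.9% of all genes. Both days lie between a high and a low that the rule had fixed for these genes.

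The median log2 change of the members from 48 h to 72 h was -0.71, with a range from -3.10 to 0.07, and that of all genes was -0.01. A fall of at least 2-fold that passed the test was found in 29 members (22.5%), against 2.36% of all genes. Among the other 790 genes of the first-day rise, 244 (30.9%) were called lower and 235 (29.7%) higher, with a median of 0.01. The limit at 96 h is what separates these genes from the members, so this contrast is not independent of the rule. The difference was not tested. With library sizes in place of TMM the median change of all genes moved to -0.11, and 115 members were called lower and 0 higher, where 30.3% of all genes were called lower and 12.8% higher.

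**Figure D4:**
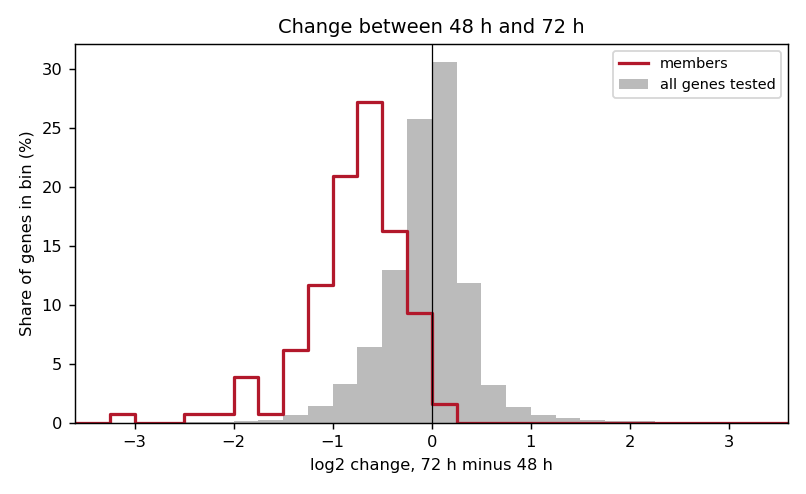
Share of genes in each bin of 0.25 on the log2 scale (y axis, percent) by their change from 48 h to 72 h (x axis), with grey bars for all 14636 genes tested and a red outline for the 129 members. The members centre on -0.71 and the genes as a whole on -0.01.

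By their level at 96 h relative to 0 h, the fall from 48 h to 72 h was called in 30 of the 34 members that ended at least 2 times above their start, in 70 of the 89 that came back within 2-fold and in 6 of the 6 that ended at or under 0.5 times, against 20.8% of all genes. Differences between these shares were not tested. The 23 members without a call had log2 changes from -2.33 to 0.07. Only 2 had an estimate above 0. The first had 44.9 ± 2.73 CPM at 48 h and 47.1 ± 3.18 CPM at 72 h (log2 change 0.07, standard error 0.08, edgeR adjusted p = 0.499), after 69.1 ± 4.18 CPM at 24 h. The other had 8.71 ± 1.25 and 8.80 ± 1.87 CPM (log2 change 0.01, standard error 0.17, edgeR adjusted p = 0.963; SD, n = 4 each).

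The rule was then applied in the libraries of 1 batch and the genes followed in the other, where none of the libraries had taken part in the choice. Batch 1 alone gave 135 genes. In batch 2, 130 of them (96.3%) were called higher at 24 h than at 0 h, where 24.9% of all genes tested were. Their median log2 change was 1.77, against 1.95 in the batch that chose them. From 24 h to 96 h 131 (97.0%) were called lower, against 30.3% of all genes, with a median of -1.45. By 48 h 92 (68.1%) were already called lower than at 24 h and 5 were called higher, against 23.3% of all genes lower and 25.1% higher, with a median of -0.70. From 48 h to 72 h 86 (63.7%) were called lower, against 12.4%.

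The reverse choice gave a like result. Batch 2 alone gave 112 genes, and in batch 1 all 112 were called higher at 24 h than at 0 h and all 112 lower at 96 h than at 24 h (edgeR, 2 libraries per time point), where 27.4% and 31.8% of all genes were. Their median log2 changes were 2.17 and -1.54. At 48 h 77 (68.8%) were called lower than at 24 h and 9 higher, against 26.3% of all genes lower and 27.4% higher. From 48 h to 72 h 86 (76.8%) were called lower, against 12.7%.

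Of the 129 members, 120 met the rule in batch 1 by itself and 106 in batch 2 by itself, 97 of them in both and 0 in neither. These 97 were also the only genes that met it in both batches, which is 71.9% of the 135 and 86.6% of the 112. In the members the median log2 rise by 24 h was 2.02 in batch 1 and 1.79 in batch 2, with the larger rise in batch 1 for 92 of 129. The share of all genes with the larger rise in batch 1 was not at hand. The median difference in this change, batch 2 minus batch 1, was -0.18 in the members and 0.04 in all genes. The members' median fall from 24 h to 96 h was -1.49 in batch 1 and -1.53 in batch 2. The median member level at 24 h was 20.9 CPM in the first batch and 20.5 CPM in the second, and at 72 h it was 9.08 and 6.55 CPM.

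**Figure D5:**
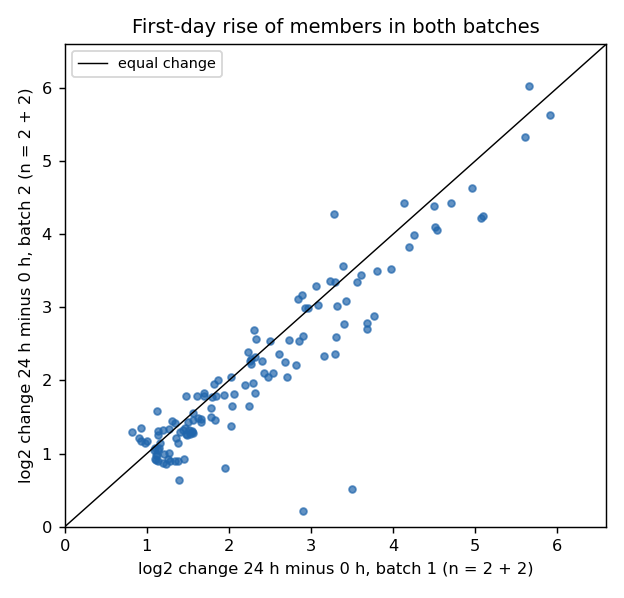
Each point is 1 of the 129 members, with its log2 change from 0 h to 24 h in batch 1 on the x axis and in batch 2 on the y axis (2 libraries per time point, 0.1 added) and a line where both are equal. All points are above 0 in both batches, and 92 of 129 lie on the side of the larger rise in batch 1.

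The overall level differed between batches in 13 members (10.1%), 5 higher and 8 lower in batch 2, against 19.2% of all genes (edgeR batch term). The test of a time course that differed between batches called 0 members, against 0.00683% of all genes. DESeq2 called 1 member, with no share of all genes at hand. At an unadjusted p under 0.05 the edgeR test gave 26 members (20.2%), against 9.72% of all genes. The fitted biological coefficient of variation had a median of 11.4% in the members and 8.08% in all genes. Members were also lower expressed, with a median of 11.2 CPM over the 20 libraries against 19.7 CPM, and the part of this in the wider spread was not tested.

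When each library of 0 h, 24 h and 96 h was left out in turn, 103 of the 129 members met the rule every time. The other 26 dropped out at least once. The loss was at most 10 genes, when replicate D at 24 h was left out. With RLE, another scaling between libraries, 128 genes met the rule, all among the 129. The count moved more with library sizes in place of TMM: 215 genes met the rule, among them all 129. That scaling moved the median log2 difference of all genes between 24 h and 96 h from 0.02 to 0.48.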

How the data were processed

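The authors deposited raw read counts per gene for 20 polyA libraries. Per the labels' protocols a stranded mRNA kit and 75 bp reads were used. STAR 2.7, featureCounts and the build bosTau9 are named in the submitters' processing notes. The parameters, the strand setting and the release of the annotation are not stated.

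The tests used edgeR 4.0.16 in R 4.3.3. Low genes were removed by filterByExpr by time point (minimum count 10, minimum total 15), which left 99.967% or more of each library, and TMM scaling followed. A single quasi-likelihood model of time point plus batch, with robust estimation, covered the 20 libraries. Models of a single batch held time point alone, with 2 libraries per time point. Tests were two-sided with Benjamini-Hochberg adjustment over all genes tested, and the limit for a call was an adjusted p of 0.05. DESeq2 1.42.0 was an alternative, as were other scaling, no filter, other terms and left-out libraries. The code was tested on simulated data.

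The members and lists were chosen with earlier results of these data known. The lists of named genes, marker genes and promoter motifs were not used here, because no identifier had a symbol. The rule for naming took the members with the largest smaller ratio among those called at 72 h against 48 h, up to 2 in each direction. The replicate letters were checked as pairs: same-letter libraries, as deviations from the mean of their time, correlated at 0.199 to 0.526 between 48 h and 72 h (4 of 4 pairs over 0.1), which by the criterion used pairs these times, but in only 22 of 40 pairs over all times. Part of this may be batch, which was not removed for the check. All 20 columns were matched by name.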

Additional observations from a re-analysis of the deposited data

Results flagged for a closer look

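Dixon's test was run on 30 groups of 4 replicate values and marked a distant library in 5, where about 1 in 20 is the rate by chance. The sets include genes picked for their spread or level. ENSBTAG00000048608 was at 448.5 CPM in replicate A at 24 h, with the others between 61.2 and 77.0 CPM, and at 375.2 CPM in replicate D at 48 h, with the others between 18.5 and 63.7 CPM. ENSBTAG00000002006 was at 2472 CPM in replicate B at 72 h, above the others at 2048 to 2115 CPM, and at 1638 CPM in replicate D at 96 h, above the others at 1168 to 1237 CPM. The members together held 0.523% of the unscaled counts in replicate C at 48 h, where the others held 0.617% to 0.621%. Over all members and time points, 42 of 645 sets of 4 values (6.51%) held such a library. The share over all genes was not at hand, so nothing is read about the members from this count.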

How the results depend on the processing

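Counts of genes under another setting were within 1.5 times the main value in 102 cases and further away in 4. The 102 include counts of 0 at both settings, for which no ratio exists, and counts where every gene followed was called. The tally is therefore a description and no measure of stability. The members found by the rule numbered 215 with library sizes alone, and 114 with 1 in place of 0.1 added to the means, of which 111 were among the 129. Without the filter on low counts, 37 members were called in the batch term and 37 in the batch by time test. DESeq2 called 1 in the latter. The cause was not tested. The share of all genes called at these settings was not at hand, so nothing is read about the members from these counts. Without single libraries the rule found 120 to 134 genes, and 99 to 108 members were called lower and 0 higher at 72 h than at 48 h, with 17.6% to 19.4% of all genes lower. The fits within 1 batch were also run without single libraries and are among the cases counted above. In these fits a lone library is assumed to vary like the other groups, and no share of all genes is at hand. Their counts of calls are therefore not given. With the replicate letter as a block in place of batch, 106 members were again called lower and 0 higher at 72 h (20.3% of all genes lower), so this pairing changed no count there. The calls at 72 h were 92 lower in batch 1 alone, against 12.7% of all genes, and 82 in batch 2 alone, against 12.4%. ENSBTAG00000002940 and ENSBTAG00000043953 had the same direction and call at all of these settings, 34 values in all. Depth limits the members that were nearly silent at 0 h: 5 had under 40 counts over the 4 libraries of 0 h, so their ratios to 0 h are imprecise, as are ratios to 96 h where counts there are few.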
